A study of Mus musculus with 8 samples.

Results

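Integrins are cell-surface receptors built from 1 alpha and 1 beta chain, and laminins and collagens are among the matrix proteins that they bind. Members were chosen by symbol alone, as the protein-coding mouse genes for integrin alpha and beta chains, laminin alpha, beta and gamma chains, and collagen chains. Of the 16341 genes counted, 68 members are described, of which 21 encode integrin chains, 9 laminin chains and 38 collagen chains. Another 9 genes that fall under the same naming rule (Itga4, Itgb2l, Lama1, Col3a1, Col6a6, Col9a1, Col10a1, Col19a1 and Col26a1) were not analysed here. RNA of 4T1-Sca1+ cells was sequenced in 4 libraries, and that of 4T1-Sca1- cells in another 4. 4T1 is a mouse mammary carcinoma line, so both groups derive from a single tumor line, and they were divided on magnetic columns after staining for SCA1, a surface protein encoded by Ly6a. The labels give a CD45-negative gate for both groups and name no treatment or time point. They also differ on the starting material, since the source label names the parental line and the protocol names stained tumor. Nothing in the labels ties the replicates to separate cultures or sorts, so p-values measure the spread between these libraries, which may be technical. The comparison asks which transcripts for matrix receptors and matrix chains differ between cells that carry SCA1 and cells that do not.

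Laminins are secreted as trimers of 1 alpha, 1 beta and 1 gamma chain. The Lama3 and Lamb3 chains belong to an epithelial laminin that anchors hemidesmosomes through the integrin of Itga6 and Itgb4, while the Lama5 chain pairs with Lamb1 or Lamb2 and Lamc1 in most mature basement membranes. Integrin alpha chains largely set the ligand, and Itgb1 is the beta chain shared by most of them. Collagens form fibrils, sheet-like networks such as the type IV network of basement membranes, or short filaments and transmembrane proteins, and the mammary epithelium rests on a basement membrane of laminin and type IV collagen.

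Total counts ran from 15041995 to 16968215 in 4T1-Sca1+ and from 13561804 to 16142836 in 4T1-Sca1- libraries. Ly6a held 145 to 196 counts in the first group and 0 to 4 in the second, in the direction of the labels. The libraries differed in how counts moved with the GC content of the transcripts. Per 10 points of GC, the slope was 0.04 to 0.25 (log2) in the 4T1-Sca1+ libraries, with the highest slope in replicate 3, and -0.17 to -0.02 in the 4T1-Sca1- libraries. Replicate 3 of 4T1-Sca1+ also stood apart in its counts, with a chi-square per gene of 6.75 to 9.67 against the other libraries of its group, where all other pairs within a group gave 1.88 to 5.48. The median GC content was 57.3% for tested collagen chains, 53.1% for integrin chains, 54.3% for laminin chains and 49.8% for all tested genes. Since GC content and group moved together, a fit with GC-corrected offsets is given beside each member whose call or direction it changed, and beside some of the others. A missing value does not mean that the size stayed the same. Values of the other gene lists and of markers that are no members are given without that correction.

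Of the 68 members, 45 passed the filter on low counts and were tested, and 23 were counted but not tested. Of the tested members, 26 had higher and 9 had lower counts in 4T1-Sca1+ cells by edgeR's quasi-likelihood test (adjusted p under 0.05), and 10 did not pass. Over all 11717 genes tested, 31.3% were called higher and 30.2% lower, 61.5% in all, so a call by itself was common in this comparison, and the share of tested members called was 77.8%. A change of at least 1.5-fold was rarer, at 11.7% of all genes upward and 4.08% downward, and was met by 16 and 5 members. The 26 and the 16 include Col6a2 and Col14a1, which passed the low-count filter through the 4T1-Sca1+ libraries and so had to differ. The values of the groups did not overlap for 33 of 45 members, and for 54.7% of all genes. With GC-corrected offsets, 22 members were higher and 14 lower, and 67% of all genes were called. With every counted gene tested, 30 members were higher and 10 lower, and 46.4% of all genes were called. In sorted fractions measured in bulk, fewer cells of a kind and less RNA per cell cannot be told apart. The study chose gene signatures on these same libraries, and 10 members are in them (Col2a1, Col6a1, Col6a2, Col11a2 and Itgb3 as higher, and Lama3, Lamb3, Itga2, Itgb6 and Col17a1 as lower), so their direction is not independent evidence.

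**Figure D1:**
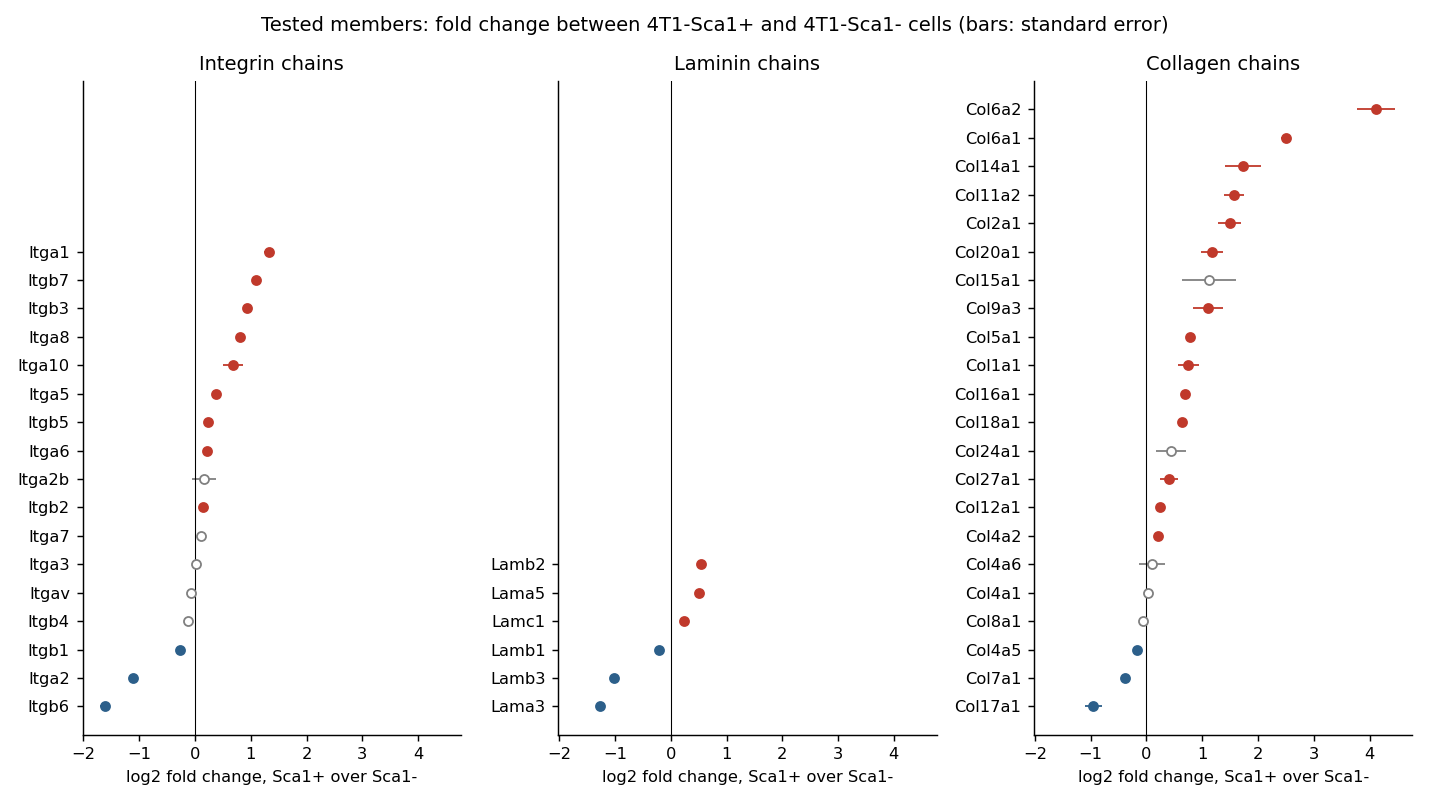
Log2 fold change of 4T1-Sca1+ over 4T1-Sca1- cells for the 45 tested members, in panels for integrin, laminin and collagen chains, with bars for the standard error. Filled red points are called higher, filled blue points lower, and open grey points were not called. Collagen chains reach 4.12 (Col6a2), and the lowest values are those of Itgb6 (-1.61), Lama3 (-1.27) and Itga2 (-1.12).

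Several members lie next to each other in the genome, and the sequences at the starts of 3 such pairs are shown because their values are compared. Each window runs from 250 bases before to 50 bases after the RefSeq start, 5′ to 3′ on the gene's strand in GRCm38.p6, and 50 of 68 members had such a window. Capitals mark matches, on either strand, to the AP-1 motif TGANTCA, the TEAD motif GGAATG, the GC box GGGCGG or the TATA box TATAAA, and no matches overlapped. Itga1 (chr13:115101915-115102214) and Itga2 (chr13:114932051-114932350) are adjacent collagen receptor genes that moved in opposite directions, and Col6a1 (chr10:76725995-76726294) and Col6a2 (chr10:76623581-76623880) are adjacent type VI collagen genes that both rose, all 4 on the minus strand.
Itga1: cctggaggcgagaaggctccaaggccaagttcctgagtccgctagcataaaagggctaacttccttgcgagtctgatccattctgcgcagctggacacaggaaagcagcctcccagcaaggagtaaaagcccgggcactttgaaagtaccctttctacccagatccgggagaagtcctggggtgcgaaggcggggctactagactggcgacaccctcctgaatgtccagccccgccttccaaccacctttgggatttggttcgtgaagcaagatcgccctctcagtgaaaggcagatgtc
Itga2: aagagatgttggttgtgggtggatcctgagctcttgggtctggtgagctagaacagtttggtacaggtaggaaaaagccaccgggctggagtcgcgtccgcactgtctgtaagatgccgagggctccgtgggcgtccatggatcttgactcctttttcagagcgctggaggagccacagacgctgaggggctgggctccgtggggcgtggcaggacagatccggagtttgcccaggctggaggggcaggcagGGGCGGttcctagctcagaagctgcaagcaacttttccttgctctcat
Col6a1: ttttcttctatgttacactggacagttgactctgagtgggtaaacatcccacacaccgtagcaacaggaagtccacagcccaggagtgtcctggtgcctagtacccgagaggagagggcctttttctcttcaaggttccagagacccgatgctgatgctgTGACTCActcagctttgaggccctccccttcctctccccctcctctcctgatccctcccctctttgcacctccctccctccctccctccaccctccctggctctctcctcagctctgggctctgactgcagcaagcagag
Col6a2: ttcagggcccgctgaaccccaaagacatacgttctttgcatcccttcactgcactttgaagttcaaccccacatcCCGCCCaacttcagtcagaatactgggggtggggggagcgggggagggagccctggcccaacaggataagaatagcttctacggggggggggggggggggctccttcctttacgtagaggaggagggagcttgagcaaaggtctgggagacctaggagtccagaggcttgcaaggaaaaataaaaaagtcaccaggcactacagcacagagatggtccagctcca
The Col6a1 window held 1 AP-1 match, 90 bases before the start (position -90), and the Itga2 and Col6a2 windows held 1 GC box each. Of 32817 mouse windows of this length, 7.81% held the AP-1 motif, 14.7% the TEAD motif, 35.6% the GC box and 13.6% the TATA box. The third pair shares its start. Col4a1 and Col4a2, the chains of the main type IV collagen, are transcribed away from each other from overlapping ends on chromosome 8, and the Col4a2 window on the plus strand (chr8:11312555-11312854) covers the annotated start of both and held 3 GC boxes.
Col4a2: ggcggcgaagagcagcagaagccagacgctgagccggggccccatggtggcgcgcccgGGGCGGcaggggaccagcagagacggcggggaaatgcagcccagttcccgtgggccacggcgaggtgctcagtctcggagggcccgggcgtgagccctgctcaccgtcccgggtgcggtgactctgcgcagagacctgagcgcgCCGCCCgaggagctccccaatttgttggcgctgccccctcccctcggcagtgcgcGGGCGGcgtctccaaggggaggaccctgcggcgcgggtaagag
These matches describe letters in the windows and were not tested for binding.

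Laminin chains changed in both directions. Of the 6 laminin genes tested and reported, 3 were higher and 3 lower in 4T1-Sca1+ cells, where 31.3% of all genes were higher and 30.2% lower. Lama3 and Lamb3, both chains of hemidesmosomal laminin, fell with Lamb1, and the Lama5, Lamb2 and Lamc1 chains of basement membrane laminins rose. Normalized counts, which are counts divided by the size factor of the library, were 1100.4, 1042, 938 and 985 for Lama3 in the 4T1-Sca1+ libraries and 2534, 2426, 2483 and 2470.1 in the 4T1-Sca1- libraries. All 4T1-Sca1- values lay above all 4T1-Sca1+ values, and the log2 fold change was -1.27 (SE 0.05, adjusted p = 1.18e-12 by edgeR). Lamb3 had 1756, 1565, 1795 and 1640.1 in 4T1-Sca1+ and 3312, 3650.0, 3477 and 3378 in 4T1-Sca1- libraries, again without overlap. Its log2 fold change was -1.02 (SE 0.05, adjusted p = 1.92e-11 by edgeR). In the GC-corrected fit the changes were -1.37 for Lama3 and -1.23 for Lamb3.

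Lama5, the alpha chain of the major epithelial basement membrane laminins, had normalized counts of 26974, 27084, 31815 and 26374 in 4T1-Sca1+ and 18999, 21642, 19309 and 19489 in 4T1-Sca1- libraries. The groups did not overlap, and replicate 3 of 4T1-Sca1+ was the highest of the 8. The log2 fold change was 0.51 (SE 0.06, adjusted p = 5.22e-07 by edgeR), and it was 0.18 after GC correction, still called. Lamb2 behaved alike, with 1838, 1900.3, 2219 and 1842 against 1305, 1409.7, 1330.2 and 1357, and a log2 fold change of 0.54 (SE 0.06) that was 0.24 after GC correction. Lamc1 rose by less (7645 ± 186 against 6538 ± 212, mean ± SD, n = 4), with a log2 fold change of 0.24 (SE 0.04) that became 0.10 after GC correction. Lamb1, the most abundant beta chain, moved the other way, from 15552 ± 269 in 4T1-Sca1- to 13299 ± 524 in 4T1-Sca1+ cells, and its log2 fold change was -0.21 (SE 0.04, adjusted p = 2.34e-04 by edgeR), or -0.33 after GC correction. The laminin beta chains thus did not follow one direction, since Lamb2 rose while Lamb1 and Lamb3 fell.

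Compared per kilobase of exon, so that chains could be set against each other, Lama5 was the most abundant of these laminin transcripts in both groups, at 2464 ± 221 normalized counts per kilobase in 4T1-Sca1+ and 1744 ± 106 in 4T1-Sca1- cells (SD, n = 4). Lamb1 came next, at 1341 ± 52.9 and 1568 ± 27.1, and its level lay nearer to that of Lama5 in 4T1-Sca1- cells. Lamb3 stood at 255 ± 16 and 522 ± 22.3 and Lamb2 at 321 ± 29.9 and 222 ± 7.34, so that Lamb2 was above Lamb3 in 4T1-Sca1+ cells and below it in 4T1-Sca1- cells. Lama3 was below both in 4T1-Sca1+ cells and near Lamb2 in 4T1-Sca1- cells, at 94.6 ± 6.57 and 231 ± 4.12.

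**Figure D2:**
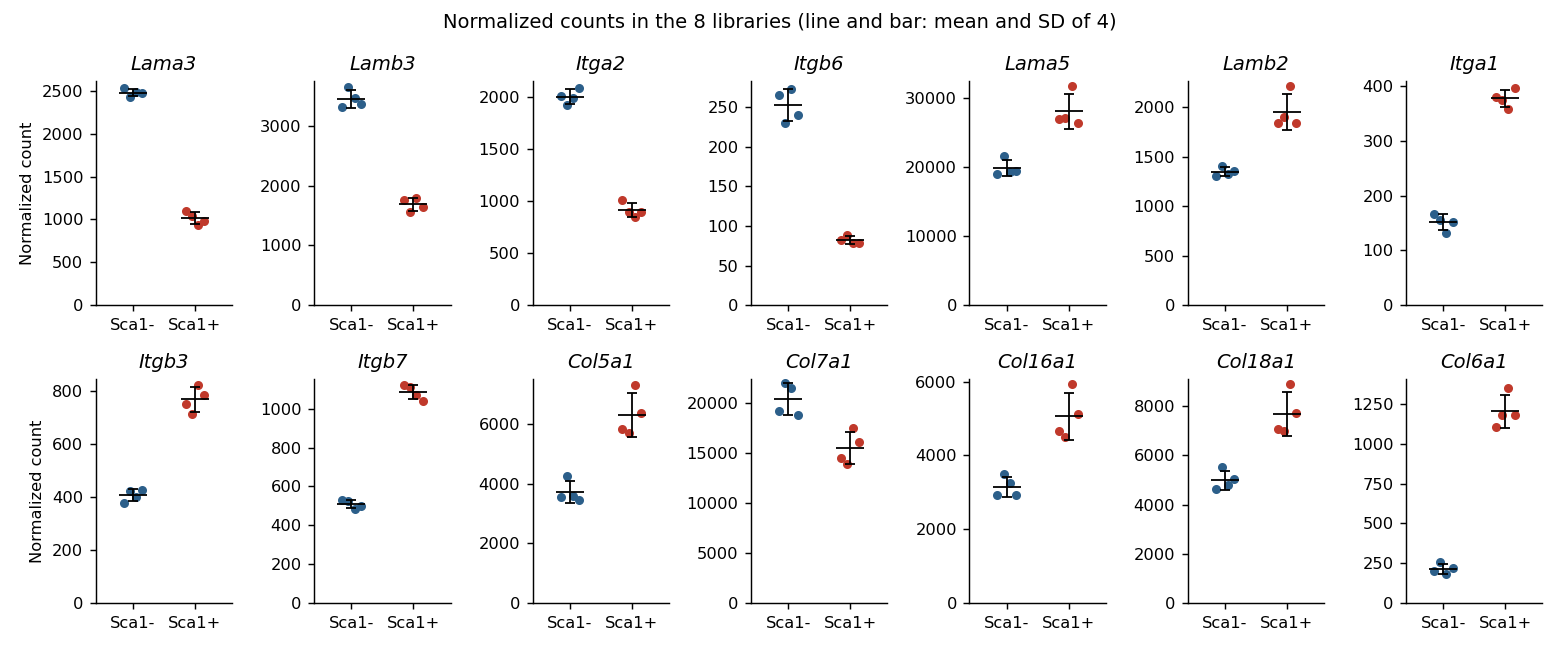
Normalized counts of 14 members in each of the 8 libraries, on axes that start at 0, with blue points for 4T1-Sca1- and red points for 4T1-Sca1+ libraries and a black line and bar for the mean and SD of 4. The groups do not overlap for any gene shown, with Lama3, Lamb3, Itga2, Itgb6 and Col7a1 lower and the other genes higher in 4T1-Sca1+ libraries.

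Integrin chains changed in both directions. Of 17 tested integrin genes, 9 were higher, 3 were lower and 5 did not pass, with a median log2 fold change of 0.16. With GC-corrected offsets 7 were higher and 6 lower, and the median was -0.02. Without that correction, 70.6% of tested integrin genes were called, beside 61.5% of all genes (31.3% higher and 30.2% lower). The receptors for collagen gave the widest spread. Itga1, which with Itgb1 forms a receptor that favours type IV collagen, had 381, 375, 359 and 396 normalized counts in 4T1-Sca1+ and 167, 155, 132 and 153 in 4T1-Sca1- libraries. Every 4T1-Sca1+ value exceeded every 4T1-Sca1- value, with a log2 fold change of 1.32 (SE 0.08, adjusted p = 2.54e-10 by edgeR). Itga2, which forms a receptor that favours fibrillar collagen, had 1007, 896, 852 and 899 against 2016, 1924, 1991 and 2093. Its log2 fold change was -1.12 (SE 0.05, adjusted p = 1.31e-11 by edgeR), opposite to that of Itga1. Itga2 (ENSMUSG00000015533, chromosome 13, 114833081 to 114932100) lies 20995 bases from Itga1 (ENSMUSG00000042284, chromosome 13, 114953096 to 115101964) on the same strand, and no coding gene lies between them. GC correction left them at 1.38 and -1.07. Per kilobase, Itga2 remained above Itga1 in both groups, at 128 ± 9.26 against 20.3 ± 0.83 in 4T1-Sca1+ and 281 ± 9.80 against 8.17 ± 0.77 in 4T1-Sca1- cells. Itga10, another collagen receptor chain, was scarcer and higher in 4T1-Sca1+ libraries (62.2, 68.0, 97.7 and 63.9 against 44.9, 44.1, 37.8 and 55.9). Its log2 fold change was 0.68 (SE 0.17), or 0.52 after GC correction, and Itga11 did not exceed 1 count in any library.

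The laminin receptor chains changed little by comparison. Itga3, the alpha chain of the main laminin receptor of epithelial cells, was the most abundant integrin transcript, with 48522, 47715, 54318 and 48802 normalized counts in 4T1-Sca1+ and 47134, 52840.0, 47764 and 49843 in 4T1-Sca1- libraries. The groups overlapped, and the log2 fold change was 0.03 (SE 0.05, adjusted p = 0.660 by edgeR), but with GC-corrected offsets it was -0.25 and called. Without replicate 3 of 4T1-Sca1+ it was -0.02, and without replicate 1 of 4T1-Sca1- it was -0.01. Itga6, which encodes CD49f, one of the stem cell markers stained in the study, was higher in 4T1-Sca1+ cells at 4575 ± 224 against 3964 ± 144 (log2 fold change 0.22, SE 0.05, adjusted p = 6.03e-04 by edgeR). Its hemidesmosomal partner Itgb4 had 3775, 3855, 4706 and 3874 against 4271, 4815, 4385 and 4279 and was not called (log2 fold change -0.12, SE 0.06). Itgb4 was called lower without replicate 3 of 4T1-Sca1+ (-0.20), with every counted gene tested (-0.13) and with GC-corrected offsets (-0.46). Itga7 was at 743 ± 38.2 and 692 ± 43.5 and was not called (log2 fold change 0.12, SE 0.06). It turned to -0.15 and was called lower after GC correction, but was called higher with library totals alone (0.16) and upper-quartile scaling (0.15). Itga7 overlaps Mettl7b on the opposite strand, from which unstranded reads cannot be told apart.

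Among chains that bind the RGD sequence of fibronectin and vitronectin, Itgav itself did not pass (2539 ± 188 against 2699 ± 146, log2 fold change -0.08, SE 0.06, adjusted p = 0.253 by edgeR), while each of its tested beta partners did. Itgb3, which encodes CD61, another stem cell marker stained in the study, had 749, 714, 824 and 785 normalized counts in 4T1-Sca1+ and 376, 423, 401 and 427 in 4T1-Sca1- libraries. The groups lay far apart, with a log2 fold change of 0.93 (SE 0.06, adjusted p = 1.05e-09 by edgeR). Itgb6, the epithelial partner of Itgav that takes part in activating latent TGF-beta, had 82.3, 88.8, 77.8 and 77.9 against 265, 230.0, 273 and 239.7. It fell by 1.61 on the log2 scale (SE 0.10, adjusted p = 2.12e-10 by edgeR), the lowest fold change of the 45 tested members. Itgb5, the vitronectin receptor beta chain, was higher at 2235 ± 129 against 1924 ± 81.2 (log2 fold change 0.23, SE 0.05), but GC correction brought it to -0.02 and ended the call. Itga5, the fibronectin receptor alpha chain, was higher at 1317 ± 55.4 against 1026 ± 46.7 (log2 fold change 0.37, SE 0.05), and 0.12 after GC correction. Itga8 had 247, 241, 244 and 232 against 129.9, 144, 132 and 148, so that its groups did not overlap (log2 fold change 0.81, SE 0.08), but it overlaps E030013I19Rik on the opposite strand, so reads of the 2 genes cannot be told apart either. Itga2b, the platelet chain, was at 33.7 ± 5.34 and 30.4 ± 8.88 and was not called. Its log2 fold change of 0.16 became -0.12 after GC correction and turned to -0.00448 without replicate 1 of 4T1-Sca1-.

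Itgb1, the shared beta chain, had 11175, 10768, 9498 and 10510.0 normalized counts in 4T1-Sca1+ and 13580.2, 12175, 12811 and 12760.2 in 4T1-Sca1- libraries. Its groups did not overlap, and it was lower in 4T1-Sca1+ cells (log2 fold change -0.28, SE 0.05, adjusted p = 1.62e-04 by edgeR). Itgb7, a beta chain best known from lymphocytes, had 1122, 1110.4, 1070.2 and 1042 against 531, 525, 485 and 499, with a log2 fold change of 1.10 (SE 0.05, adjusted p = 1.31e-11 by edgeR), or 0.83 after GC correction. Itgb2, the beta chain of the leukocyte integrins, had 3232, 3479, 3435 and 3271 against 2937, 3173, 2926 and 3196, a log2 fold change of 0.15 (SE 0.05, adjusted p = 0.0113 by edgeR). That call was lost without replicate 1 (0.12) or replicate 3 (0.12) of 4T1-Sca1- and after GC correction (0.01). The usual alpha partners of Itgb2, which are Itgal, Itgam, Itgax and Itgad, did not exceed 4 counts in any library, and neither did Ptprc, which encodes CD45. Itgae, a partner of Itgb7, did not exceed 5 counts. The leukocyte list held 22 markers, of which 16 were either not counted or never above 10 counts, and of the 5 tested, 4 (S100a8, Csf1r, Cd74 and Cd68) were higher and Cd14 was lower. S100a8, at 38.5 ± 5.50 against 7.52 ± 3.54, passed the low-count filter through the 4T1-Sca1+ libraries and so had to differ. Of all genes, 31.3% were higher. The summed normalized count of the list ran from 1132 to 1190 in 4T1-Sca1+ and from 1070 to 1178 in 4T1-Sca1- libraries. Most of that sum came from Cd14, the marker that was lower, at 703 ± 32.2 and 865 ± 34.9. Cd68 stood at 236 ± 18.4 and 152 ± 9.67, and Cd74 at 125 ± 6.42 and 65.5 ± 15.1. The part of leukocytes in the Itgb7 result was not tested.

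Per kilobase, Itga3 held 87.0% ± 1.00 of the integrin alpha sum in 4T1-Sca1+ and 86.9% ± 0.66 in 4T1-Sca1- cells, and the alpha sums were 10032 ± 500 and 9957 ± 445 normalized counts per kilobase (SD, n = 4). Itgb1 held 47.5% ± 2.72 of the integrin beta sum in 4T1-Sca1+ and 56.0% ± 1.96 in 4T1-Sca1- cells, Itgb2 20.3% ± 0.79 and 17.9% ± 0.94, and Itgb7 7.25% ± 0.13 and 3.28% ± 0.11. Itga3, the most abundant of these transcripts, was not called, and Itga1 and Itgb6, with the highest and the lowest fold change among integrin chains, were scarce. In 4T1-Sca1+ cells Itgb6 stood at 11.5 ± 0.73 per kilobase, beside 629 ± 36.3 for Itgb5.

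**Figure D3:**
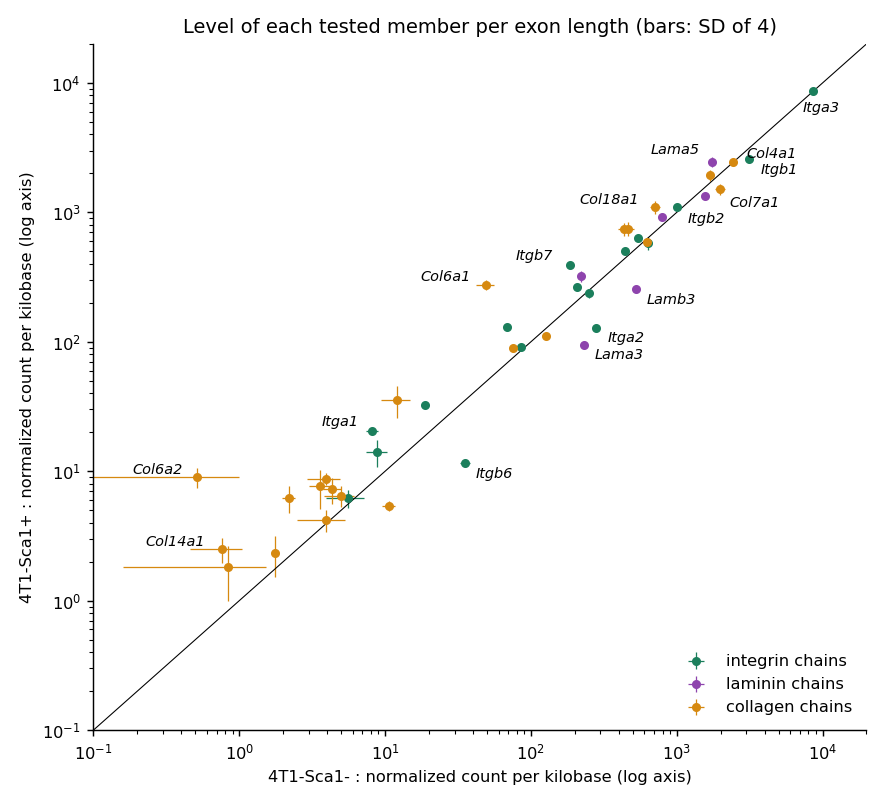
Level of each tested member per kilobase of exon in 4T1-Sca1- (x axis) and 4T1-Sca1+ (y axis) cells, both log axes in normalized counts per kilobase, with bars for the SD of 4 libraries and a line where the groups are equal. Green, purple and orange points are integrin, laminin and collagen chains. Itga3 stands highest, near 8728 in 4T1-Sca1+ cells and on the line, while Lama3, Lamb3, Itga2 and Itgb6 lie under the line and Col6a1 and Col6a2 above it. The lower arm of the Col6a2 bar along x runs to the axis limit.

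Collagen chains were mostly higher in 4T1-Sca1+ cells. Of 22 tested collagen genes, 14 were higher, 3 were lower and 5 did not pass, with a median log2 fold change of 0.66, which was 0.34 with GC-corrected offsets. Called genes made up 77.3% of them and 61.5% of all genes (31.3% higher and 30.2% lower). The 14 include Col6a2 and Col14a1, which passed the low-count filter through the 4T1-Sca1+ libraries, with at most 9 and 7 counts in any 4T1-Sca1- library, and so had to differ. Type VI collagen forms beaded filaments beside basement membranes. Col6a1 (ENSMUSG00000001119, chromosome 10, 76708792 to 76726168) had 1103, 1178, 1351 and 1181 normalized counts in 4T1-Sca1+ and 201, 256, 183 and 221 in 4T1-Sca1- libraries. The gap between the groups was wide, with a log2 fold change of 2.49 (SE 0.09, adjusted p = 1.25e-13 by edgeR), or 2.26 after GC correction. Col6a2 (ENSMUSG00000020241, chromosome 10, 76595762 to 76623630), 85161 bases away with no coding gene between, had 64.9, 73.0, 94.8 and 67.4 against 0, 9.24, 2.23 and 5.71. Its log2 fold change of 4.12 (SE 0.34) is a description, for the reason just given, and is set by few counts, since it was 4.85 without replicate 2 of 4T1-Sca1- and 3.66 without replicate 1 of 4T1-Sca1-. The third classical chain, Col6a3, did not exceed 2 counts in any library. Per kilobase Col6a1 exceeded Col6a2 in both groups, at 275 ± 23.9 against 9.01 ± 1.63 in 4T1-Sca1+ cells.

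In the fibrillar class 5 of 6 tested chains were higher and none lower, where 31.3% of all genes were higher and 30.2% lower. Col5a1, which nucleates fibrils, was the most abundant of them, with 5835, 5718, 7336 and 6375 normalized counts in 4T1-Sca1+ and 3551, 4276, 3593 and 3462 in 4T1-Sca1- libraries. The groups did not overlap, with a log2 fold change of 0.78 (SE 0.07, adjusted p = 8.30e-08 by edgeR), and 0.50 after GC correction. Col11a2, a minor fibril chain known from cartilage, had 207, 185, 336 and 252 against 86.0, 106, 79.0 and 60.5 (log2 fold change 1.56, SE 0.18). Col2a1, the main cartilage collagen, had 43.0, 66.1, 70.8 and 49.0 against 22.9, 18.5, 18.9 and 20.5 (log2 fold change 1.49, SE 0.20). Col1a1, the chain of bone and connective tissue, was scarce at 61.2, 39.4, 38.9 and 50.8 against 28.7, 33.9, 24.5 and 27.4 (log2 fold change 0.75, SE 0.19, adjusted p = 0.00252 by edgeR). After GC correction Col11a2 was at 1.14, Col2a1 at 1.10 and Col1a1 at 0.45 (adjusted p = 0.0456 by edgeR for the last), all still called. Its partner Col1a2 did not exceed 8 counts, and Col5a2, the partner of Col5a1, did not exceed 1 count. Col27a1 overlapped between groups (log2 fold change 0.40, SE 0.16, adjusted p = 0.0420 by edgeR). Its call ended after GC correction (0.08), in DESeq2 (0.39) and in limma on the deposited signal (0.39). The call also ended without replicate 3 (0.27) or 4 (0.42) of 4T1-Sca1+ or replicate 1 (0.27), 3 (0.34) or 4 (0.42) of 4T1-Sca1-. Col24a1, at 17.8 ± 6.31 and 13.5 ± 0.85, was not called.

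Some fibroblast markers were also higher. Of 15 in the list, 6 were tested, of which 4 were higher (Col1a1, Pdgfra, Sparc and Fbln1) and Postn and Tagln were not called. Col1a1 is itself one of the collagens, and without it 3 of 5 were higher. The summed normalized count of the list ran from 3537 to 3762 in 4T1-Sca1+ and from 2381 to 2745 in 4T1-Sca1- libraries, most of it from Sparc, which stood at 2543 ± 85.0 and 2012 ± 120. Dcn, a defining fibroblast gene, gave 49 counts in all 4T1-Sca1+ libraries together and 4 in the other group. Pdgfrb gave 27 and 1 and Acta2 11 and 0, whereas Fap gave 4 and 11 and Col1a2 19 and 18. The part of such cells in the collagen result was not tested. All 11 epithelial markers were tested, of which 2 (Krt8 and Krt18) were higher and 6 (Cdh1, Krt7, Cldn3, Cldn4, Esrp1 and Elf3) lower, with sums of 62570 to 68769 in 4T1-Sca1+ and 65794 to 71102 in 4T1-Sca1- libraries. Endothelial markers summed to 2480 to 2587 and 2410 to 2702 in the same order, most of it from Eng, at 2362 ± 28.9 and 2368 ± 111. Of the 3 tested, 1 was lower and none higher. The untested Pecam1 gave 21 counts in all 4T1-Sca1+ libraries together and 4 in the other group, whereas Cdh5 gave 3 and 7 and Esam 24 and 32. Of 9 basal and myoepithelial markers, 3 were tested, of which Mylk was higher and Krt14 lower. Over all genes, 31.3% were higher and 30.2% lower.

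The tested fibril-associated collagens and the multiplexin Col18a1 were also higher. Col16a1, a fibril-associated chain, had 4674, 4509, 5927 and 5136 normalized counts against 2918, 3500.1, 3246 and 2935 (log2 fold change 0.70, SE 0.07, adjusted p = 3.41e-07 by edgeR). Col18a1, a multiplexin of basement membranes and the source of endostatin, had 7089, 6995, 8901 and 7731 against 4637, 5524, 4804 and 5019 (log2 fold change 0.63, SE 0.07). Neither overlapped between groups, and after GC correction the changes were 0.32 and 0.27, both called. All 5 tested fibril-associated chains were called higher, where 31.3% of all genes were higher and 30.2% lower. The others were Col12a1 at 1357 ± 41.7 against 1154 ± 48.8 (log2 fold change 0.25, SE 0.05) and the scarce Col9a3, Col14a1 and Col20a1, whose log2 fold changes ran from 1.10 to 1.73. After GC correction Col9a3 was at 0.79, Col14a1 at 1.68 and Col20a1 at 0.96. The value of 1.73 is that of Col14a1, which passed the low-count filter through the 4T1-Sca1+ libraries and so had to differ. Col15a1, the other multiplexin, was at 11.5 ± 5.19 and 5.33 ± 4.32 and missed the threshold (adjusted p = 0.0537 by edgeR), which it passed without replicate 1 of 4T1-Sca1+ (log2 fold change 1.39) and without replicate 3 of 4T1-Sca1- (1.72).

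Of the 4 tested network collagens of the basement membrane, 1 was higher, 1 was lower and 2 were not called. Col4a1 had 18386, 16938, 20024 and 18106 normalized counts in 4T1-Sca1+ and 17547, 19484, 17647 and 18339.5 in 4T1-Sca1- libraries, with a log2 fold change of 0.02 (SE 0.05, adjusted p = 0.731 by edgeR). Col4a2 had 12438, 11526, 14376 and 12870.3 against 10839, 12212, 10839 and 10885 and was called higher, with overlap (log2 fold change 0.21, SE 0.06, adjusted p = 0.00526 by edgeR). Both turned with GC correction, to -0.25 for Col4a1 and -0.15 for Col4a2, both then called lower. Without replicate 3 of 4T1-Sca1+ or replicate 1 of 4T1-Sca1-, Col4a1 was at -0.02 and -0.01. Since Col4a1 and Col4a2 overlap on opposite strands by 22 bases, a few reads at their ends may be shared. Col4a5, on the X chromosome, was lower at 744 ± 43.1 against 848 ± 45.2 (log2 fold change -0.17, SE 0.06, adjusted p = 0.0150 by edgeR), or -0.27 after GC correction. That call was lost without replicate 2 of 4T1-Sca1+ (-0.15), without replicate 4 of 4T1-Sca1- (-0.14) and with library totals alone (-0.13). The neighbour of Col4a5, Col4a6, whose start lies 1308 bases away, was at 33.7 ± 6.53 and 31.1 ± 11.4 and was not called, with a log2 fold change of 0.10 that was -0.07 without replicate 3 of 4T1-Sca1- and -0.05 after GC correction. Col8a1, a short-chain network collagen, was also not called (4623 ± 247 against 4884 ± 249).

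Both tested collagens of the epithelial anchoring complex fell. Col7a1, which forms the anchoring fibrils under hemidesmosomes, had 14492, 13959.6, 17554 and 16130.4 normalized counts in 4T1-Sca1+ and 19198, 22054, 21536 and 18877 in 4T1-Sca1- libraries. The groups did not overlap, with a log2 fold change of -0.38 (SE 0.07, adjusted p = 7.20e-05 by edgeR), and -0.76 after GC correction. Col17a1, the transmembrane collagen of hemidesmosomes, was scarce, with 32.0, 28.6, 33.9 and 35.0 against 59.2, 64.7, 57.9 and 73.1 (log2 fold change -0.95, SE 0.15, adjusted p = 2.89e-05 by edgeR), or -1.20 after GC correction. Lama3, Lamb3, Col7a1 and Col17a1 were all lower in 4T1-Sca1+ cells, whereas the receptor chains of the same complex were higher (Itga6) or not called (Itgb4). Lama3, Lamb3 and Col17a1 are in the study's signatures as lower, so their direction is not independent evidence. With GC-corrected offsets, with every counted gene tested, and without replicate 3 of 4T1-Sca1+, Itgb4 was called lower like the matrix chains. Of genes from the other lists that also act there, Plec (log2 fold change 0.65) and Cd151 (0.36) were higher and Dst (-0.01) was not called.

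Summed per kilobase, collagen stood at 9662 ± 864 in 4T1-Sca1+ and 8665 ± 500 in 4T1-Sca1- cells. Col4a1 held 25.5% ± 0.81 of the sum in 4T1-Sca1+ and 28.2% ± 0.72 in 4T1-Sca1- cells, and Col7a1 held 15.6% ± 0.42 and 22.9% ± 1.12. The shares of Col18a1 (11.3% ± 0.34 and 8.21% ± 0.27), Col16a1 (7.74% ± 0.29 and 5.38% ± 0.22) and Col5a1 (7.69% ± 0.24 and 5.05% ± 0.22) were larger in 4T1-Sca1+ cells. The collagen RNA of both groups was thus mainly that of basement membrane and anchoring fibril chains, and fibrillar Col1a1, at 7.25 ± 1.62 per kilobase in 4T1-Sca1+ cells, was a small part of it.

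Ratios between chains that assemble together or compete for a partner were taken within each library, which removes the effect of library scaling but not that of GC content. Of 12 pairs compared, 10 differed between groups with no overlap, each at an exact two-sided permutation p of 0.0286, the smallest that 70 splits of 8 libraries can give, and an adjusted p of 0.0343. Of all single genes, 54.7% did not overlap, and how often ratios of other genes would separate was not tested. The pairs with Itgb3, Itgb6 or Itga2 hold genes of the study's signatures. For laminins, Lamb2/Lamb1 was 0.238 against 0.142 (geometric means), Lamb1/Lamc1 1.45 against 1.98, and Lama5/Lamc1 2.66 against 2.20. For Itgav partners, the ratio Itgb3/Itgav was 0.551 against 0.274, Itgb5/Itgav 2.66 against 2.16 and Itgb6/Itgav 0.0486 against 0.141. The beta chains available to Itgav therefore differed in both directions, with more Itgb3 and less Itgb6 transcript per Itgav transcript in 4T1-Sca1+ cells. Itga2/Itga3 was 0.0147 against 0.0325, and Itga5/Itgav 1.13 against 0.828. Itga6/Itgb4 (0.880 and 0.695, adjusted exact p = 0.0935) and Itga3/Itga6 (17.2 and 19.7, adjusted exact p = 0.114) did not pass. Col4a1/Col4a2 was 1.27 against 1.45. With the GC trend of each library taken out of both counts, an alternative chosen after seeing the data, 7 of these 10 differences still passed in the same direction. Those of Itgb5/Itgav (2.40 against 2.39), Itga5/Itgav (1.02 against 0.921) and Lama5/Lamc1 (2.48 against 2.36) did not, with adjusted exact permutation p values of 0.8286, 0.0686 and 0.0935. Itga6/Itgb4 (0.975 against 0.627) and Itga3/Itga6 (15.9 against 21.3) then passed, at an adjusted exact permutation p of 0.0381. Col6a1/Col6a2 gave no ratio because 1 4T1-Sca1- library held no Col6a2 count.

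**Figure D4:**
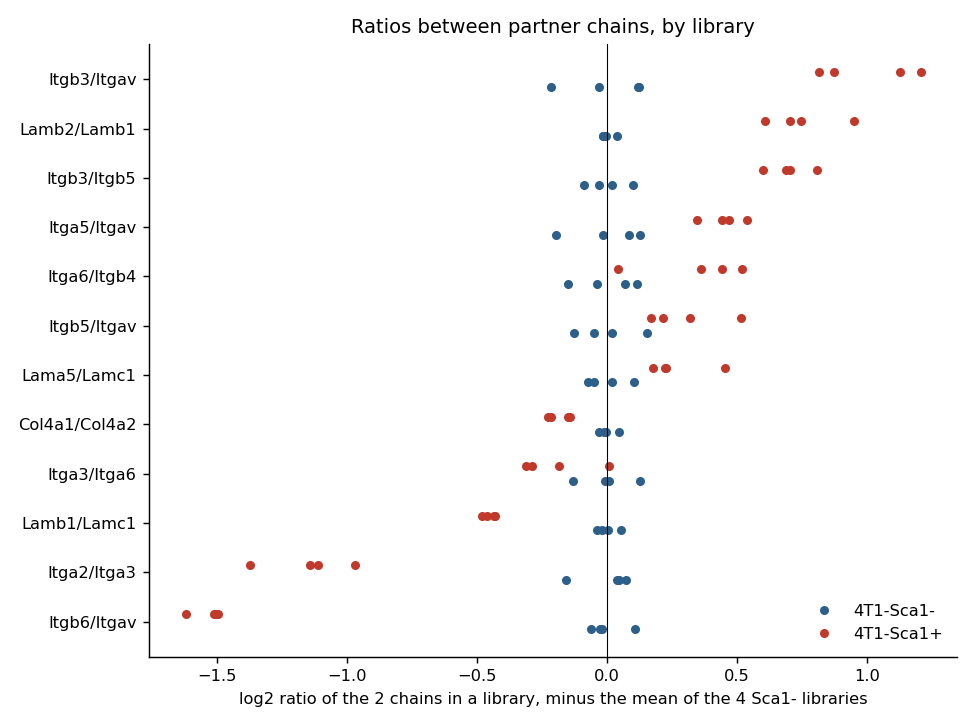
Ratio of 2 chains, both per kilobase, in each library for the 12 pairs compared, on a log2 scale and minus the mean of the 4 4T1-Sca1- libraries, which is the line at 0. Blue points are 4T1-Sca1- and red points 4T1-Sca1+ libraries. The red points of Itgb6/Itgav and Itga2/Itga3 lie farthest to the left, with log2 differences of -1.53 and -1.15, and those of Itgb3/Itgav farthest to the right, at 1.01.

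The remaining 23 members were too scarce to test. Of these, 12 did not exceed 3 counts in any library of either group (Col4a3, Col4a4, Col5a2, Col6a3, Col6a4, Col6a5, Col9a2, Col11a1, Col13a1, Col25a1, Itga9 and Itga11), and Col1a2, Col8a2 and Lamc3 held 2 to 13 counts per library in both groups. The other 8 were at or under 3 counts per library in one group only. Col23a1, a transmembrane collagen, gave 10, 10, 19 and 18 counts in 4T1-Sca1+ and 2, 1, 3 and 1 in 4T1-Sca1- libraries. Col28a1 gave 12, 7, 16 and 14 counts against 0, 1, 0 and 0, a ratio of 43.7 with a 95% interval from counting error of 7.49 to 1762 that rests on the single count of the second group. Itgb8, a further Itgav partner, gave 9, 7, 6 and 6 counts against 1, 3, 2 and 2. These 3 genes and Col22a1 did not overlap between groups. They were named for being at the floor in the 4T1-Sca1- group only, so their separation is partly given by that choice. All counts of this size carry large counting errors. Col5a3, Col22a1, Lama4 and Itgae reached at most 5 counts in a 4T1-Sca1+ library, and Lama2 reached at most 4 in a 4T1-Sca1- and 2 in a 4T1-Sca1+ library.

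Genes that work with these receptors and chains were read from the same fit, without GC correction, from lists written for this comparison. Among integrin adaptors and linkers, 4 of 23 tested were higher and 11 lower. Tns1, a tensin that ties integrins to actin, rose most (549.97 ± 44.1 against 128 ± 10.4, log2 fold change 2.11), followed by the cytolinker Plec (0.65) and Parvb (0.64). The kindlin Fermt1, an activator of epithelial integrins, fell most (924 ± 47.1 against 2401 ± 12.6, log2 fold change -1.37), followed by Fermt2 (-0.40) and the scaffold Bcar1 (-0.36). Of the other laminin and collagen receptors, 6 of 8 tested were higher and none lower, with Bcam, the Lutheran laminin receptor, at 0.82, the tetraspanin Cd151 at 0.36 and the discoidin receptor Ddr1 at 0.23. The 6 became 5 with replicate number as a block, and 4 or 5 with any 1 library left out. Ddr1 overlapped between groups. Over all genes 31.3% were higher and 30.2% lower, so these counts describe the lists and were not tested against other genes.

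Of 17 tested matrix glycoproteins and proteoglycans, 8 were higher and 5 lower. Fbln1, a fibulin of basement membranes and elastic fibers, stood at 418 ± 10.9 against 97.2 ± 3.87 (log2 fold change 2.12), Nid1, which links laminin to the type IV collagen network, at 134 ± 12.7 against 56.7 ± 4.65 (1.25), and Spp1, the RGD protein osteopontin, at 31100 ± 2350 against 13778 ± 468 (1.19). Tnc fell by 1.29, Fbln2 by 0.88 and Thbs1 by 0.47 on the log2 scale. Among 23 tested genes for collagen modification, folding and crosslinking, 10 were higher and 9 lower. Among those averaging 50 normalized counts or more, Pcolce, which enhances procollagen processing, rose most (1.26), followed by the lysyl oxidase family gene Loxl3 (0.99) and Adamts14 (0.72), while the crosslinking enzyme Loxl4 (-1.10), the telopeptide lysyl hydroxylase Plod2 (-0.63) and P3h2 (-0.39) had the lowest values among those called. The scarcer P3h4 (0.79) and P4ha3 (-0.47) were also called.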

How the data were processed

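RNA from 4T1-Sca1+ and 4T1-Sca1- cells was sequenced in 4 libraries each, made with a kit that does not mark strand. The submitters' processing notes name cutadapt 1.16 and STAR 2.5.3a with the GRCm38 (mm10) genome. The counting tool, its annotation and its use of strand are not given in the sources used here. The authors deposited raw counts for 16341 genes and a table of normalized signal for 15372 genes, whose values equal the counts divided by DESeq2 median-of-ratios size factors (relative difference at most 4.96e-15). Total counts ran from 13561804 to 16968215 per library, and intervals and floors from them cover counting error only.

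Symbols, positions, exon lengths (merged exons, which set per-kilobase levels) and GC content came from GENCODE M21 on GRCm38, matched by Ensembl ID (16200 genes found, 141 not). Tests used the counts without change, in edgeR 4.0.16 (R 4.3.3). After filterByExpr, 11717 genes were tested and 4624 were not. Libraries were scaled by TMM and compared by the quasi-likelihood test (two-sided, no covariate) with Benjamini-Hochberg adjustment over all tested genes. Calls are adjusted p values under 0.05. Standard errors are absolute log2 fold changes over the root of F. The step was tested on simulated data. Within-library ratios of exon-length-scaled counts were compared by an exact permutation test over 70 splits, adjusted over 12 pairs. The floor is 3 counts per library, and a group none of whose libraries exceeds it is at the floor.

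Named members were those called with at least a 1.5-fold change and a mean normalized count of at least 50, the 3 most abundant per class per kilobase, both genes of each pair, Itgb3 and Itga6 (stained in the study), and members at the floor in one group. Others are named to account for every member. In the lists of adaptors, other receptors, other matrix proteins and collagen modification, the 3 highest and 3 lowest called genes with that mean were named. Marker lists covered leukocytes, fibroblasts, endothelium, epithelium and basal or myoepithelial cells. A gene under the naming rule is not reported here. The members and lists were chosen with earlier results of these data known. Promoter windows came from RefSeq. Alternatives were DESeq2 size factors, DESeq2 1.42.0, limma-voom (limma 3.58.1), limma on log2 of the deposited signal plus 1, testing every gene, keeping genes with 10 counts or more throughout, upper-quartile scaling, library totals alone, GC-corrected offsets, replicate number as a block, a threshold of 0.01, a minimum change of 1 on the log2 scale and leaving out each library, and, chosen after seeing the data, partner ratios from GC-corrected counts.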

Additional observations from a re-analysis of the deposited data

Results flagged for a closer look

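Within groups of 4 libraries, the highest or lowest library was set against the other 3 by Dixon's gap ratio at its 95% critical value. Of 114 groups of values examined, 10 passed, where chance gives about 5.7 (1 in 20).

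In replicate 3 of 4T1-Sca1+, 5 members stood above the other libraries of the group in normalized counts. Lama5 was at 31815 (the others at 26374 to 27084) and Itga3 at 54318 (47715 to 48802). Itgb4 was at 4706 (3775 to 3874), Lamb2 at 2219 (1838 to 1900.3) and Itga10 at 97.7 (62.2 to 68.0). This is the library with the highest GC slope, and the part of that slope in these values was not tested.

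In replicate 2 of 4T1-Sca1-, Col4a2 stood at 12212 (10839 to 10885), Col5a1 at 4276 (3462 to 3593) and Itgb5 at 2045 (1872 to 1892). This library had the GC slope nearest 0 of its group. The ratio Itga2/Itga3 was lowest there, at 0.0291 against 0.0334 to 0.0342. In replicate 1 of 4T1-Sca1+, Itgb6/Itgav was 0.0458 against 0.0493 to 0.0499.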

How the results depend on the processing

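Over 18 alternative fits, 30 of the 35 called members kept their direction and their call wherever they were tested. The other 5 were Col4a2, Col4a5, Col27a1, Itgb2 and Itgb5. With GC-corrected offsets, 14 members were lower, 6 integrins and 5 collagens among them, where the reported fit gave 9, 3 and 3. In that fit the log2 fold change turned to -0.247 for Col4a1, -0.146 for Col4a2, -0.0546 for Col4a6, -0.116 for Itga2b, -0.248 for Itga3, -0.153 for Itga7 and -0.0189 for Itgb5. GC content and group cannot be fully told apart, since no library of either group shared the slopes of the other. Leaving out 1 library at a time gave -0.0244 to 0.0572 for Col4a1, -0.0733 to 0.352 for Col4a6, -0.00448 to 0.324 for Itga2b and -0.0199 to 0.0542 for Itga3, none of them called. No partner ratio changed direction with a library left out, with raw counts plus 1 or with GC-corrected counts (added after seeing the data), but in the last the log2 difference was 0.0739 for Lama5/Lamc1, 0.144 for Itga5/Itgav and 0.00653 for Itgb5/Itgav, which no longer passed, and 0.636 for Itga6/Itgb4 and -0.428 for Itga3/Itga6, which then passed. With a minimum change of 1 on the log2 scale there were 9 members higher and 4 lower, with 2 integrins higher, 0 laminins higher and 2 lower, and 7 collagens higher and 0 lower, by construction of that threshold.

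The replicate numbers are shared by both groups, but deviations of same-numbered libraries correlated at 0.0957, -0.15, -0.0339 and -0.00107, which gave no sign of pairing by number. These correlations were not set against those of differently numbered libraries and cannot exclude pairing. With the replicate block, 27 members were higher and 9 lower, and Col15a1 was the member whose call changed. Precision was limited by depth for the scarce chains, since a member with under about 10 counts per library was not tested.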
